A study of Mus musculus with 24 samples.

Results

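Ovaries of mice that had received ABT263 were compared with ovaries of control mice at 9 months of age, across all genes of the mRNA. The comparison took the 3 libraries labelled ABT263 at 9 months and the 3 libraries labelled natural aging at 9 months, 6 of the 24 libraries of the series, each from the whole ovary of 1 mouse. ABT263, also known as navitoclax, binds BCL-2, BCL-XL and BCL-W, proteins that hold back the mitochondrial route to apoptosis, and it is used to remove senescent cells that depend on them. Per the study's methods, female C57BL/6J mice were given 50 mg per kg body weight per day by oral gavage from 3 months of age, with 7 days of dosing and a 21 day interval in each month, for 3 months. The mice collected at 9 months were then housed with males for 3 months, so their ovaries were taken 3 months after the treatment period ended. The labels of the controls give natural aging and the age, and the study describes its controls as given vehicle and also housed with males. Whether these 3 mice were handled so is not given by the labels, so drug, gavage and mating cannot be told apart here. The stage of the estrous cycle, pregnancy and the time of day at collection are not given in the sources used here.

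The adult ovary is a changing mixture of cells. Granulosa and theca cells surround each oocyte and make estrogens and androgens, and after ovulation they become the luteal cells of the corpus luteum, which take up or make cholesterol and turn it into progesterone. Macrophages enter and clear the corpus luteum when it regresses, and they also clear dying follicles. In a whole ovary, fewer cells of a type and less RNA per cell cannot be told apart, since a count is the sum over all cells. Values are given below as CPM, counts per 1000000 counts of the library after TMM scaling, and a difference between groups as a log2 fold change of ABT263 over control, so that 1 is a doubling. Mice are numbered 1 to 3 within each group, and values are listed in that order.

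The libraries held 18377716 to 21049389 counts in the controls and 16776567 to 17121630 in the treated mice, and 17065 genes passed the filter on low counts. The ovary's defining genes were present in every mouse, among them the oocyte gene Gdf9, at 34.5, 20.2 and 47.3 CPM in the controls and 36.9, 53.97 and 32.8 CPM in the treated mice, and the granulosa cell gene Amh, at 149.7, 61.3 and 128 CPM and 120.3, 186 and 74.99 CPM. Control mouse 1 stood apart from the other controls. On the first principal component, which held 42.6% of the variance of the 6 libraries, it lay at -32.5, beside treated mice 1 and 2 at -39.5 and -26.2, while controls 2 and 3 lay at 56.5 and 35.4 and treated mouse 3 at 6.302. Results that rest on control 1 are therefore given with and without it.

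At an adjusted p under 0.05 with edgeR's quasi-likelihood test, no gene was called in either direction (0 of 17065, 0%), and the smallest adjusted p was 0.852. At an unadjusted p under 0.05, 378 genes were higher in the treated mice (2.22% of those tested) and 600 were lower (3.52%), together 978 genes or 5.73%. DESeq2's Wald test, run as an alternative on the same libraries, called 7 genes higher (0.0433% of 16161) and 25 lower (0.155%). Of these 32 genes, control 1 was the control nearest to the mean of the treated mice in 27, against 44.6% of all genes tested. Groups did not overlap, so that every treated mouse lay above or below every control, for 1040 genes higher in the treated mice (6.09%) and 799 lower (4.68%). With 3 mice a group, an exact permutation test of a single gene cannot go below a p of 0.1. Without control 1, edgeR called 5 genes, all lower in the treated mice (0.0287% of 17413), and 1019 genes (5.85%) were higher and 1239 (7.12%) lower at an unadjusted p under 0.05. Control 1 was singled out from these same values for lying near the treated mice, so a fit without it is not a cleaner estimate. Without control 2 or control 3 instead, edgeR called 0 genes, and 475 and 625 genes had an unadjusted p under 0.05. The genes below are therefore described by their values in each mouse, and none of them passed edgeR's adjusted threshold with all 6 mice. The p-values measure the spread between these mice, and depth was lower in each treated library than in each control, whose part in the differences was not tested.

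Many genes of macrophages and of phagocytosis were higher in all 3 treated mice. Lyz2, the lysozyme of macrophages and granulocytes (chr10:117277331-117282321 on GRCm38), was at 271, 264 and 236 CPM in the controls and at 423, 350.2 and 435 CPM in the treated mice, a log2 fold change of 0.64 ± 0.14 (SE, edgeR adjusted p = 0.852). The lowest treated mouse was above the highest control, and the 3 controls were close to each other. Syk, the kinase that carries the signal of activating Fc receptors (chr13:52583173-52648792), was at 27.3, 37.6 and 31.6 CPM in the controls and 49.7, 58.3 and 50.8 CPM in the treated mice (log2 fold change 0.71 ± 0.14, edgeR adjusted p = 0.852). Fcgr3, an activating receptor for immunoglobulin G, was at 17.6, 20.2 and 17.5 CPM and 25.6, 34.8 and 30.4 CPM (log2 fold change 0.71 ± 0.15). Fcer1g, the signalling chain that this receptor needs, was at 17.4, 17.5 and 18.1 CPM and 23.8, 28.1 and 34.9 CPM (log2 fold change 0.70 ± 0.16). The receptor, its signalling chain and its kinase each separated the treated mice from the controls. They were named for their small p, Syk and Fcgr3 among genes without overlap, so their separation is not independent evidence.

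Of the 29 members of a list of Fc receptor and phagocytosis genes that were tested, 25 were higher and 4 lower, with a median log2 fold change of 0.39, against 0.01 over all genes. In 11 members every treated mouse lay above every control, and in none did every treated mouse lie below, against 6.09% and 4.68% of all genes tested. The summed level of the list was 2166 to 2673 CPM in the controls and 2055 to 3570 CPM in the treated mice, ranges that overlap, with treated mouse 1 the lowest of the 6. The 11 members with an unadjusted p under 0.05 were all higher, against 2.22% of all genes tested. These members also held Trem2, a receptor for lipids and cell debris (0.58), its adaptor Tyrobp (0.51), Cyba, a chain of the NADPH oxidase (0.36), the integrin chain Itgb2 (0.49), Dock2, which drives leukocyte movement (0.57), and Fcgr4, another activating Fc receptor (1.38). Itgam, the partner chain of Itgb2 in the complement receptor, had a log2 fold change of -0.68 with overlapping groups. Several Fc receptor genes are close copies of each other, and how reads that match more than one were counted is not given in the sources used here.

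The 20 macrophage marker genes tested had a median log2 fold change of 0.48, with 17 higher and 3 lower. In 8 of them the groups did not overlap, all higher, against 6.09% of all genes tested. The summed level of the list was 826 to 929.5 CPM in the controls and 1182 to 1272 CPM in the treated mice. In the natural aging series this sum ranged from 634 to 745 CPM at 3 months and 943 to 1129 CPM at 6 months. At 12 months it ranged from 1052 to 2710 CPM, a range that holds every treated value. Without control 1 the median was 0.50. Csf1r, the receptor for the main growth factor of macrophages, was at 49.3, 53.5 and 46.1 CPM in the controls and 60.3, 84.2 and 77.2 CPM in the treated mice (log2 fold change 0.57 ± 0.14), and Mpeg1, a pore-forming protein of macrophages, at 113, 109 and 107 CPM and 155, 196 and 157 CPM (0.61 ± 0.12). Irf8, a transcription factor that directs the formation of monocytes and macrophages, was at 25.3, 18.99 and 19.01 CPM and 36.8, 39.4 and 33.2 CPM (0.78 ± 0.16), and DESeq2 called it (adjusted p = 0.0489). Each of these genes had all treated mice above all controls. Among markers that were not higher, Lyve1 of resident macrophages had a log2 fold change of -0.67 and Cd14, a receptor for bacterial lipids, -0.25, both with overlap. The T and NK cell list had a median of -0.09 and the B and plasma cell list one of -0.44, with no member at an unadjusted p under 0.05 in either, and without control 1 these were -0.26 and -0.56. For neutrophils 3 markers could be tested, of which Ltf, the milk protein lactoferrin that neutrophil granules hold, reached 14.3 CPM in treated mouse 3 and 2.63 CPM at most in the 5 other mice.

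**Figure D1:**
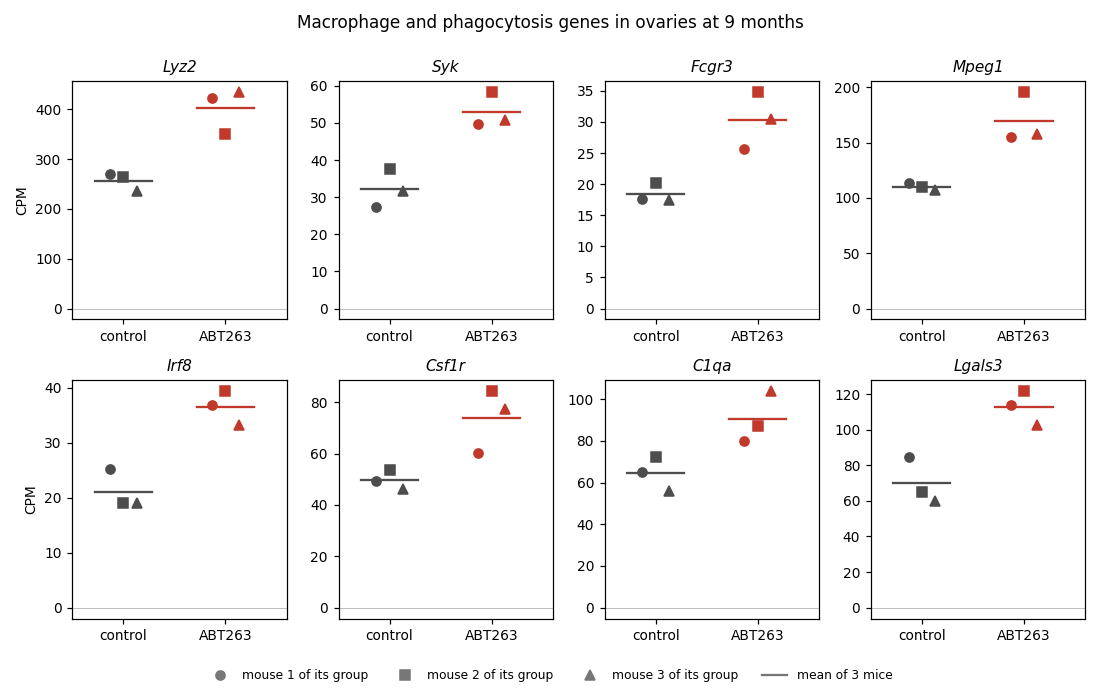
Level in CPM of 8 macrophage and phagocytosis genes in each ovary at 9 months, with 3 control mice in grey and 3 ABT263-treated mice in red, symbols for the mouse within its group and lines for the mean of 3 mice. In every panel the treated mice lie above the controls, as for Lyz2 with 271, 264 and 236 CPM against 423, 350.2 and 435 CPM.

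Complement genes were higher in part. Of 16 tested, 12 were higher and 4 lower, with a median log2 fold change of 0.16, and 0.31 without control 1. At an unadjusted p under 0.05, 5 were higher and 0 lower, against 2.22% and 3.52% of all genes tested. The summed level of the list was 1858 to 2426 CPM in the controls and 2043 to 2785 CPM in the treated mice, ranges that overlap. The 3 chains of C1q, which starts the classical complement pathway and marks debris for uptake, are members of the macrophage list too and were all higher without overlap, C1qa at 65.3, 72.1 and 55.98 CPM in the controls and 79.97, 87.3 and 104 CPM in the treated mice (log2 fold change 0.48 ± 0.14), C1qb with 0.57 ± 0.17 and C1qc with 0.50. Cfp, properdin, which stabilizes the alternative pathway, had a log2 fold change of 0.53 ± 0.15, and C3ar1, the receptor for the C3a fragment, 0.48. The central component C3 (0.66) and the regulator Cd55 (0.10) overlapped between the groups. Hc, which encodes complement C5, was at 4.42, 1.81 and 1.47 CPM in the controls and 10.1, 9.48 and 6.75 CPM in the treated mice, and DESeq2 called it higher (log2 fold change 1.77 ± 0.44 in edgeR, DESeq2 adjusted p = 0.0247).

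Several chemokines were higher at low levels. Ccl8, a chemokine that attracts monocytes, was at 0.863, 0.657 and 0.5702 CPM in the controls and 2.46, 1.63 and 3.03 CPM in the treated mice, a log2 fold change of 1.75 ± 0.38. Ccl6 was at 15.9, 17.4 and 11.5 CPM and 39.99, 26.2 and 24.5 CPM (1.01 ± 0.24). Ccl3 was at 0.593, 0.274 and 1.19 CPM and 1.93, 1.85 and 2.11 CPM (1.48 ± 0.51). These 3 genes did not overlap between the groups, although Ccl8 and Ccl3 stood near or below 3 CPM in every mouse. The chemokine and cytokine list had a median of 0.23 over 22 genes tested. At an unadjusted p under 0.05, 4 members were higher and 1 lower, against 2.22% and 3.52% of all genes tested.

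The senescence-associated secretory phenotype, or SASP, is the set of cytokines, proteases and growth factors that senescent cells release, and the study follows it as a readout of ABT263. In the whole-ovary RNA at 9 months its members differed in both directions. Il1a, an inflammatory cytokine, was at 0.324, 0.274 and 0.7603 CPM in the controls and 1.23, 1.63 and 1.42 CPM in the treated mice, higher without overlap (1.61 ± 0.47), whereas Il1b was at 0.647, 4.104 and 2.38 CPM and 0.704, 0.561 and 1.11 CPM, with a log2 fold change of -1.58 ± 0.65 and control 1 within the range of the treated mice. Mmp9, a protease of the matrix, was at 12.4, 6.13 and 6.18 CPM and 6.74, 7.41 and 7.18 CPM (-0.22 ± 0.31), and the chemokine Cxcl10 at 3.56, 1.31 and 0.855 CPM and 2.29, 3.48 and 2.601 CPM (0.54 ± 0.53), both with overlap. Il6 had 4, 2 and 3 counts in the controls and 6, 10 and 6 in the treated mice, and Mmp3 had 5, 0 and 1 and 8, 1 and 0, so that neither was tested at this depth. Over the 19 SASP factors tested the median log2 fold change was 0.03, and 0.27 without control 1. At an unadjusted p under 0.05, 3 members were higher and 1 lower, against 2.22% and 3.52% of all genes tested. The list was put together from factors that the study names, many of them for changes in these samples, so its direction is not independent evidence.

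Markers of the senescent state itself overlapped between the groups, with 1 exception. Cdkn1a, which encodes the cell cycle inhibitor p21, was at 89.9, 20.4 and 14.9 CPM in the controls and 70.3, 20.6 and 28.6 CPM in the treated mice, with mouse 1 of each group highest (-0.07 ± 0.74, and 1.18 without control 1). Cdkn2a, which encodes p16 and p19, was at 1.56, 0.766 and 0.475 CPM and 0.586, 0.505 and 2.41 CPM (0.31 ± 0.72), and Lmnb1, the nuclear lamin that falls in many senescent cells, at 96.3, 61.1 and 78.9 CPM and 87.3, 78.4 and 95.1 CPM (0.13 ± 0.18). Of the 14 genes of the list, Gdf15, a stress-induced secreted factor, was the 1 member with an unadjusted p under 0.05 and without overlap (0.94). Of all genes tested, 2.22% were higher at an unadjusted p under 0.05 and 6.09% were higher without overlap. For the targets of the drug, Bcl2l2, which encodes BCL-W, was at 95.1, 118 and 109 CPM and 86.1, 67.5 and 84.03 CPM, lower without overlap (log2 fold change -0.44 ± 0.14, edgeR adjusted p = 0.852). Bcl2 was at 17.4, 12.3 and 17.01 CPM and 20.5, 17.4 and 18.3 CPM (0.26 ± 0.19), Bcl2l1, which encodes BCL-XL, at 55.1, 46.1 and 69.95 CPM and 61.1, 75.9 and 81.1 CPM (0.34 ± 0.19). The anti-apoptotic Mcl1, which ABT263 does not block, had a log2 fold change of -0.18 ± 0.16 and the pro-apoptotic Bax -0.06 ± 0.16. The 18 family members tested had a median of 0.08.

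The gene with the smallest p of the comparison was Sik1, and it was lower in the treated mice. Sik1 encodes a salt-inducible kinase that cyclic AMP signalling induces and that restrains the same pathway, and it is one of a group of fast-responding genes that gonadotropins and other signals switch on in the ovary through the factor CREB. Nr4a1, an orphan nuclear receptor, is another. CREB binds the cyclic AMP response element, of which the letters TGACG are one part. The circadian clock gene Per1 responds to the same signals and, like Bhlhe41, is also driven by the clock factors through the E-box CACGTG. The promoters of Nr4a1, Per1 and Bhlhe41 are shown because these genes were lower in the treated mice and carry one or both of these motifs near their start sites. Each window runs from 250 bases before to 50 bases after a RefSeq start site on GRCm38.p6, 5′ to 3′ on the gene's strand, and capitals mark these motifs, the first on either strand. They are the window of Nr4a1 at chr15:101266596-101266895 on the plus strand, the upstream window of Per1 at chr11:69098699-69098998 on the plus strand and that of Bhlhe41 at chr6:145865371-145865670 on the minus strand.
Nr4a1: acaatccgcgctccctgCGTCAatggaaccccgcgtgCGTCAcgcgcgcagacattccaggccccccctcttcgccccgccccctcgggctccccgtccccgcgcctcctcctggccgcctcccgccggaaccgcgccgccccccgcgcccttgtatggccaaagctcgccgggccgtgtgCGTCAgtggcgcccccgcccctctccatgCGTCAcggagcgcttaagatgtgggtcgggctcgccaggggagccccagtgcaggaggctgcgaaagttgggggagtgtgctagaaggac
Per1: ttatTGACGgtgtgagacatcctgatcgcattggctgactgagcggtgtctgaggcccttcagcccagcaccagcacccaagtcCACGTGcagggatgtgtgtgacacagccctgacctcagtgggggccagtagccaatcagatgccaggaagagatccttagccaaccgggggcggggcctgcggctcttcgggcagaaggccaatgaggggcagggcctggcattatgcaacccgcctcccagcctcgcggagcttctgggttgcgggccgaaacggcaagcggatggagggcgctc
Bhlhe41: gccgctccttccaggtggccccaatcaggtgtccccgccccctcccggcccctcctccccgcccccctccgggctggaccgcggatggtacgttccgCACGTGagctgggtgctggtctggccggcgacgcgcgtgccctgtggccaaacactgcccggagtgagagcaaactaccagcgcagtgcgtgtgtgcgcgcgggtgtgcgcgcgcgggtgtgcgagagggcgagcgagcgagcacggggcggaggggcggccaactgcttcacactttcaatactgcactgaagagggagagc
The window of Nr4a1 holds 4 matches to TGACG or its complement, that of Per1 holds 1 such match and 1 E-box, and that of Bhlhe41 holds 1 E-box. Of 20 genes chosen from the clock, cyclic AMP and cholesterol lists, 14 had a window. Of these 14 genes, 6 had TGACG in a window, against 23.05% of the 27025 genes with windows, and 5 had CACGTG, against 8.09%. The full cyclic AMP response element TGACGTCA, which contains the first motif, was in 0 of the 14, against 2.03%. The D-box motif TTATGTAA of clock output factors was in 0, against 1.11%, and a sterol element, TCACNCCAC, also in 0, against 1.44%. The CCAAT box was in 9, against 41.1%. All were searched on both strands. A match is a description of letters and not a bound site.

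Sik1 (chr17:31844250-31855804) was at 66.5, 89.2 and 61.5 CPM in the controls and 21.5, 22.2 and 32.4 CPM in the treated mice, a log2 fold change of -1.52 ± 0.21 (edgeR adjusted p = 0.852), 2.86-fold lower by the means. Nr4a1 (chr15:101254269-101274795) was at 106, 156 and 108 CPM and 62.97, 36.7 and 45.9 CPM (-1.35 ± 0.24, edgeR adjusted p = 0.852). DESeq2 called both (adjusted p = 3.35e-06 and 6.31e-04), and both were as low without control 1, at -1.57 and -1.44. Jund, a subunit of the AP-1 transcription factor, was at 96.98, 167 and 129 CPM and 62.7, 70.3 and 80.1 CPM (-0.89 ± 0.20), and Klf4, a zinc finger factor, had a log2 fold change of -0.93, both without overlap. Not all immediate early genes shared this direction. Egr1, the zinc finger factor that growth factors and luteinizing hormone induce, was higher without overlap (0.29), and Fos was at 7.77, 12.1 and 15.1 CPM and 6.33, 10.5 and 8.92 CPM (-0.45 ± 0.30). Of the 30 genes of the list 11 were higher and 19 lower, with a median of -0.26. At an unadjusted p under 0.05, 4 were lower and 1 higher, against 3.52% and 2.22% of all genes tested. In the ovaries of the series at 3 months of age Sik1 ranged from 23.05 to 33.1 CPM and Nr4a1 from 37.00 to 48.2 CPM. These values were close to the treated mice and below the 9-month controls. Low levels were not particular to young ovaries, as at 18 months Sik1 ranged from 19.3 to 34.5 CPM and Nr4a1 from 20.8 to 36.6 CPM. At 25 months the ranges were 36.0 to 54.4 CPM and 22.8 to 57.1 CPM. At 6 months, in natural aging mice, they were 35.1 to 64.7 CPM and 38.7 to 130 CPM. At 12 months they were 29.3 to 66.3 CPM and 38.9 to 139 CPM. The ranges at 6 and 12 months reached from near the treated values up to those of the 9-month controls.

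Per1, a repressor of the circadian clock, was at 112, 240.3 and 88.96 CPM in the controls and 68.3, 77.9 and 71.6 CPM in the treated mice (-1.02 ± 0.34, edgeR adjusted p = 0.852). Cry2, its partner, was at 70.01, 77.6 and 71.9 CPM and 54.4, 56.9 and 63.1 CPM (-0.34 ± 0.11), and Bhlhe41, a repressor of the clock, at 17.7, 20.4 and 22.95 CPM and 11.3, 13.9 and 13.99 CPM (-0.65 ± 0.17). All 3 were lower without overlap, though control 2 was far above the other controls for Per1. The activator Arntl, whose mRNA runs opposite to that of Per1 over the day, was at 13.4, 22.7 and 31.1 CPM and 37.2, 19.1 and 27.99 CPM (0.32 ± 0.35), the output gene Dbp had a log2 fold change of -0.63 ± 0.39 and -0.10 without control 1, and the repressor Nr1d1 one of -0.13 ± 0.28, all with overlap. Over the 22 clock genes 18 were lower, with a median of -0.35, and -0.19 without control 1. The part of the hour of collection in these values was not tested.

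Several nuclear histone genes were lower, among them genes of linker histones, which bind the DNA between nucleosomes. Hist1h1c (chr13:23738808-23740367) was at 108, 200.2 and 149 CPM in the controls and 61.2, 32.3 and 60.2 CPM in the treated mice (-1.58 ± 0.30, edgeR adjusted p = 0.852), called by DESeq2 (adjusted p = 6.31e-04). H1f0, the linker histone of cells that have left the cycle, was at 279.8, 249 and 229 CPM and 208, 135 and 155 CPM (-0.61 ± 0.19). Both had every treated mouse below every control. Of 18 histone genes tested, 8 were lower and 0 higher at an unadjusted p under 0.05, against 3.52% and 2.22% of all genes tested. The median was -0.88, and -1.27 over the 19 tested without control 1. The summed level of the histone list was 489.9 to 843 CPM in the controls and 241 to 384 CPM in the treated mice. Some were near 1 CPM, such as Hist1h1e at 1.19, 1.04 and 1.38 CPM and 0.528, 0.393 and 0.433 CPM. Replication-dependent histone mRNAs end without a poly(A) tail, so their counts also depend on how mRNA was selected. Genes of proliferation did not share the direction, with 34 of 35 higher, a median of 0.24 and 1 gene, the mitotic kinase Bub1 (0.51), at an unadjusted p under 0.05. Without control 1 that median was 0.42, with 10 genes higher at an unadjusted p under 0.05. The shares over all genes tested were 2.22% with all mice and 5.85% without control 1.

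**Figure D2:**
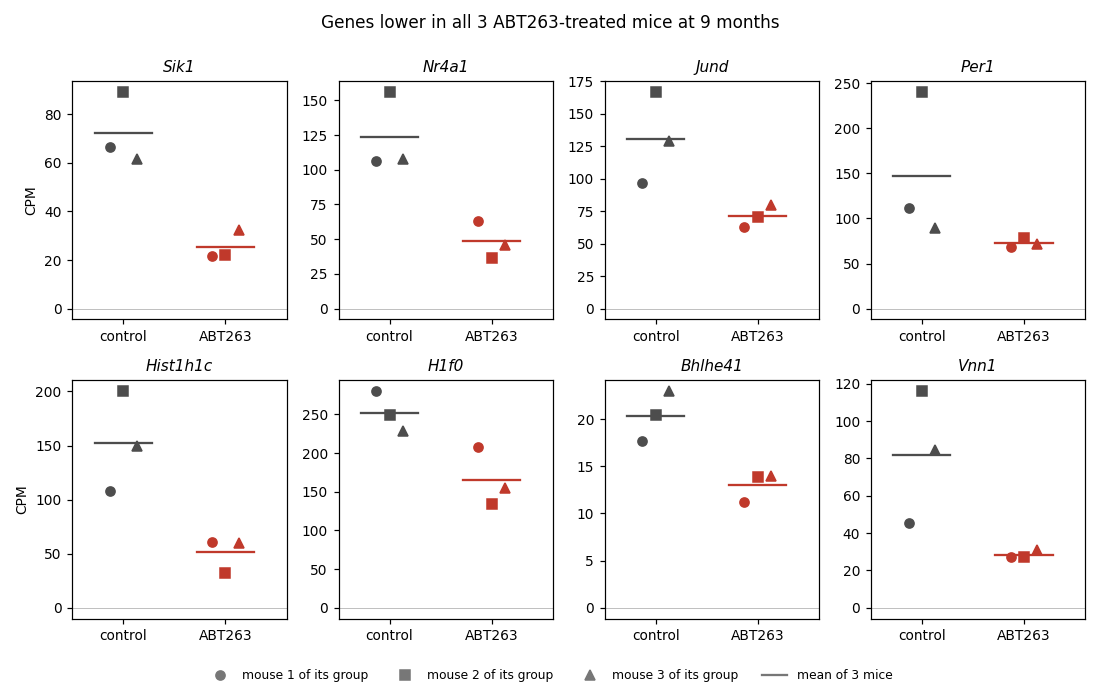
Level in CPM of 8 genes that were lower in the ABT263-treated mice at 9 months, with control mice in grey, treated mice in red, symbols for the mouse within its group and lines for the mean of 3 mice. Every treated mouse lies below every control in each panel, while the controls spread widely for Per1 (112, 240.3 and 88.96 CPM) and Vnn1 (45.5, 116 and 84.3 CPM).

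Other genes with small p were of several kinds. Vnn1, an enzyme that makes cysteamine and a member of the periovulatory follicle list, was at 45.5, 116 and 84.3 CPM in the controls and 27.3, 26.9 and 30.96 CPM in the treated mice (-1.53 ± 0.30), and edgeR called it without control 1 (log2 fold change -1.82, adjusted p = 0.0481). The other 4 genes called without control 1, named after their values were seen, were Fbxl16, Cystm1, Glis1 and Npb, and in each of them control 1 lay with the treated mice, as for Fbxl16 with 12.4, 167 and 128 CPM in the controls and 7.86, 5.72 and 13.9 CPM in the treated mice. Efhd1, a calcium-binding mitochondrial protein, was at 224, 443 and 326 CPM and 146, 125 and 163 CPM (-1.20 ± 0.24), and Gpx3, the secreted glutathione peroxidase, at 1699, 5345 and 1969 CPM and 963, 689 and 882 CPM (-1.83 ± 0.44). The spread within the treated group was narrow for these genes and wide in the controls. The phosphodiesterase family gene Enpp5 had a log2 fold change of -0.53, Cyyr1 -1.86 and Tmem56 -2.03, each without overlap. On the higher side, Adam8, a metalloprotease of leukocytes, was at 14.2, 16.9 and 17.6 CPM and 30.7, 38.4 and 24.95 CPM (0.94 ± 0.19), Wfdc17, a small secreted protein of myeloid cells, at 5.02, 3.502 and 5.84 CPM and 9.97, 10.4 and 10.7 CPM (1.10 ± 0.24), and the actin-binding Coro2a at 53.9, 61.2 and 56.98 CPM and 107, 99.2 and 74.1 CPM (0.70 ± 0.16). Brinp2, a gene of neurons, was called higher by DESeq2, at 6.15, 3.34 and 2.66 CPM and 6.86, 16.4 and 17.9 CPM. The natural aging mice at 3 months spanned these values, from 1.47 to 44.0 CPM. Sfrp2, a secreted modulator of Wnt signalling, had the largest log2 fold change of the 7 genes that DESeq2 called higher and stood at low levels in the controls, with 4.85, 1.75 and 0.808 CPM and 11.4, 27.8 and 14.2 CPM (2.84 ± 0.65). It varied widely in other natural aging mice, from 1.96 to 52.3 CPM at 3 months and from 1.78 to 47.2 CPM at 12 months, ranges that hold every treated value.

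Heat shock proteins, the chaperones that fold proteins and that rise under stress, were higher in part. Hsph1 was at 76.5, 113 and 98.6 CPM in the controls and 131, 216 and 246 CPM in the treated mice (1.03 ± 0.25), called by DESeq2 (adjusted p = 0.0489), and Hspa8, the constitutive HSC70, at 1185, 1627 and 1392 CPM and 1683, 2152 and 2790 CPM (0.65 ± 0.23). Of 12 tested, 11 were higher, with a median of 0.38, and 4 were higher at an unadjusted p under 0.05, against 2.22% of all genes tested. At 3 months of age Hspa8 ranged from 2241 to 2363 CPM, above all 3 of the 9-month controls. Hspa1b, at 0.74 ± 0.21, has a near-identical neighbour in Hspa1a, and its share of the reads is uncertain.

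Genes of the corpus luteum were lower, with wide spread in both groups. Star, the protein that carries cholesterol into mitochondria for the first step of steroid synthesis (chr8:25806555-25815982), was at 1939, 2760 and 2519 CPM in the controls and 1142, 346 and 1467 CPM in the treated mice (-1.29 ± 0.48, edgeR adjusted p = 0.852). Sfrp4, a Wnt inhibitor of luteal cells, was at 2166, 6521 and 2783 CPM and 353, 593 and 1598 CPM (-2.18 ± 0.63), and Ptgfr, the receptor of prostaglandin F2α, which ends the life of the corpus luteum, at 419, 1276 and 652 CPM and 122, 113 and 386 CPM (-1.92 ± 0.58). All 3 had every treated mouse below every control, and in each of them treated mouse 3 was the highest of its group. Akr1c18, the enzyme that inactivates progesterone in the regressing corpus luteum, was at 1163, 81.5 and 19.2 CPM in the controls and 32.5, 49.7 and 66.3 CPM in the treated mice. Its log2 fold change of -3.11 ± 1.31 rested on control 1 and was -0.02 without it. The luteal list had 11 of 13 genes lower, with a median of -1.22, and -0.88 without control 1. At an unadjusted p under 0.05, 5 members were lower, against 3.52% of all genes tested. The summed level of the list was 21477 to 44570 CPM in the controls and 12740 to 25780 CPM in the treated mice, ranges that overlap. In the natural aging series this sum ranged from 13137 to 22064 CPM at 3 months and 16026 to 21312 CPM at 6 months. At 12 months it ranged from 16515 to 40011 CPM. Star ranged from 371 to 1571 CPM at 3 months, 522 to 1199 CPM at 6 months and 514 to 6055 CPM at 12 months. The list shares 5 genes with the steroid synthesis list, in which Star and Akr1c18 were the 2 members at an unadjusted p under 0.05, and whose median was -0.29. Cyp11a1, the enzyme that makes pregnenolone, had a log2 fold change of -0.43 ± 0.35, and Lhcgr, the receptor of luteinizing hormone, one of -0.73 ± 0.56, both with overlap.

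Every one of the 20 genes of cholesterol synthesis had a log2 fold change below 0, with a median of -1.30, yet in none of them did the groups separate. Sqle, squalene epoxidase, was at 80.4, 381 and 306 CPM in the controls and 59.1, 52.7 and 205 CPM in the treated mice (-1.28 ± 0.68). Tm7sf2, a sterol reductase, was at 26.1, 188 and 149.9 CPM and 20.1, 17.9 and 46.8 CPM (-2.11 ± 0.70), and Sc5d, a sterol desaturase, at 127, 1125 and 931 CPM and 118, 217 and 216 CPM (-1.99 ± 0.69). Controls 2 and 3 were above every treated mouse for these genes, and control 1 lay at or below the highest treated mouse. With all mice 5 of the genes had an unadjusted p under 0.05, against 3.52% lower of all genes tested. Without control 1 the number was 18, against 7.12%, and the median -1.72, with none called at an adjusted p under 0.05. The summed level of the list was 1851, 11420 and 9326 CPM in the controls and 1575, 1346 and 3971 CPM in the treated mice. In the natural aging series it ranged from 1330 to 4620 CPM at 3 months, 2053 to 2294 CPM at 6 months and 1783 to 11895 CPM at 12 months. The erythroid markers, which trace blood in the tissue, had a like order of mice, with a summed level of 28.4, 264 and 233 CPM in the controls and 57.5, 70.2 and 139.9 CPM in the treated mice, and their part in the result was not tested. Insig1, which sterols use to hold back the pathway, was also highest in controls 2 and 3, at 60.6, 284 and 328 CPM and 59.1, 61.7 and 123 CPM (-1.47 ± 0.59).

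**Figure D3:**
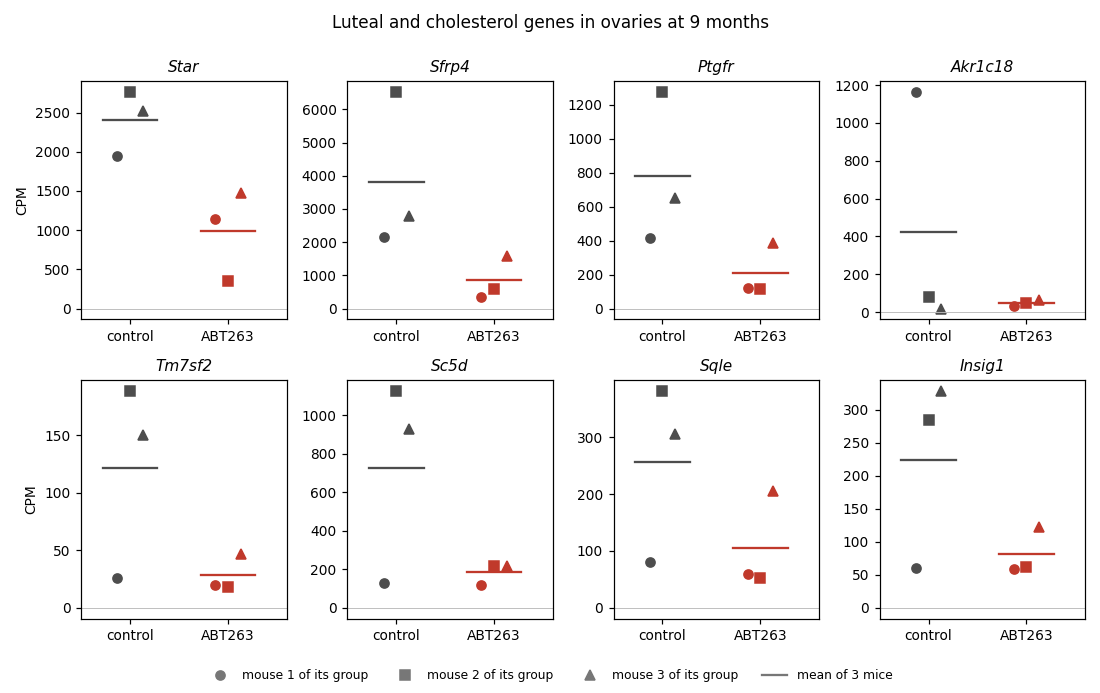
Level in CPM of 4 luteal and steroid genes (top) and 4 cholesterol genes (bottom) in each ovary at 9 months, with control mice in grey, treated mice in red, symbols for the mouse within its group and lines for the mean of 3 mice. Star, Sfrp4 and Ptgfr separate the groups, Akr1c18 is high in control 1 alone (1163 CPM), and in the bottom row control 1 lies with the treated mice.

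Genes of follicle cells overlapped widely between the groups. Cyp17a1, the enzyme of theca cells that makes androgens, was at 3.24, 128 and 116 CPM in the controls and 3.64, 296 and 33.2 CPM in the treated mice, and Cyp19a1, the aromatase of granulosa cells, at 18.8, 243 and 77.9 CPM and 14.4, 160.1 and 24.8 CPM. Mouse 1 of both groups was the lowest of its group for these genes and, for Adamts1, a protease induced by the ovulatory surge, the highest (176, 77.6 and 58.2 CPM and 592, 60.2 and 81.1 CPM). The part of cycle stage in this was not tested. Fshr, the receptor of follicle-stimulating hormone, was at 14.4, 20.7 and 21.95 CPM and 16.3, 44.3 and 13.7 CPM (0.37 ± 0.43). The granulosa cell list had a median of -0.30 with 12 of 14 lower, and the oocyte list one of 0.23 with 25 of 28 higher, and neither had a member at an unadjusted p under 0.05. Without control 1 the granulosa median was -0.55, with 3 members lower at an unadjusted p under 0.05, against 7.12% of all genes tested. The oocyte median was then 0.25. The summed level of the oocyte genes was 295 to 541 CPM in the controls and 433 to 645 CPM in the treated mice, and it was 858 to 1214 CPM at 3 months. Gdf9 and Amh, given above, had log2 fold changes of 0.26 ± 0.32 and 0.15 ± 0.41.

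Endothelial genes and several interferon-stimulated genes were lower. All 13 endothelial genes had a log2 fold change below 0, with a median of -0.44 and 3 at an unadjusted p under 0.05. Without control 1 the median was -0.60 with 8. The shares lower over all genes tested were 3.52% with all mice and 7.12% without control 1. Tie1, a receptor of blood vessel cells, was at 72.5, 117 and 93.5 CPM in the controls and 61.5, 68.3 and 68.4 CPM in the treated mice (-0.52 ± 0.17), and Tek, the angiopoietin receptor, at 34.03, 50.3 and 36.97 CPM and 31.4, 31.1 and 30.96 CPM (-0.38 ± 0.16), both without overlap. Eng, endoglin, a co-receptor of the TGF-beta family on blood vessels, was at 148, 442 and 199 CPM and 137, 114 and 164 CPM, with overlap and the lowest log2 fold change of the list (-0.93 ± 0.38). Stat2, a factor that carries interferon signals to the nucleus, was at 70.9, 90.7 and 93.8 CPM and 60.9, 67.3 and 59.4 CPM (-0.45 ± 0.14). For these 4 genes control 1 was the lowest control. Of 22 interferon-stimulated genes, with a median of -0.26, 4 were lower and 0 higher at an unadjusted p under 0.05, against 3.52% and 2.22% of all genes tested. In the extracellular matrix list, the proteoglycan Vcan had a log2 fold change of 1.05 ± 0.30 and the collagen-degrading Mmp2 one of 0.65 ± 0.22, both higher without overlap, and the median of its 33 genes was 0.20, and 0.36 without control 1. The stromal fibroblast markers had a median of 0.26 and 0.45 without control 1. Acsl1, which activates long-chain fatty acids, was lower without overlap, at 46.1, 42.6 and 45.6 CPM and 32.2, 15.6 and 32.1 CPM (-0.76 ± 0.27). The 30 fatty acid genes had a median of -0.14.

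MHC class II genes, which present antigen on macrophages and B cells, had a median of 0.01, with 5 higher and 5 lower of 10, and MHC class I genes one of -0.10, and neither list had a member at an unadjusted p under 0.05. Without control 1 the class II median was -0.26 and the class I median -0.07. The 20 genes of cholesterol uptake and transport had a median of -0.24. At an unadjusted p under 0.05, 3 were lower and 1 higher, against 3.52% and 2.22% of all genes tested. Theca and interstitial markers had a median of -0.08 and genes of the periovulatory follicle -0.06, and without control 1 these were -0.21 and -0.05. All 12 smooth muscle and pericyte genes had a log2 fold change below 0, with a median of -0.22, and Myh11, their contractile myosin, was lower without overlap (-0.42 ± 0.16). Markers of the surface epithelium had a median of 0.18 and those of the oviduct, a tissue beside the ovary, 0.15, the latter with a summed level of 58.6 to 82.3 CPM in the controls and 68.2 to 87.7 CPM in the treated mice. Without control 1 these medians were 0.04 and -0.01. Of 3 markers of fat, another neighbouring tissue, the carbonic anhydrase Car3 was at 6.31, 8.32 and 2.85 CPM in the controls and 27.2, 12.8 and 13.5 CPM in the treated mice (1.61 ± 0.45), and Plin1, which coats lipid droplets, overlapped (0.63 ± 0.41).

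**Figure D4:**
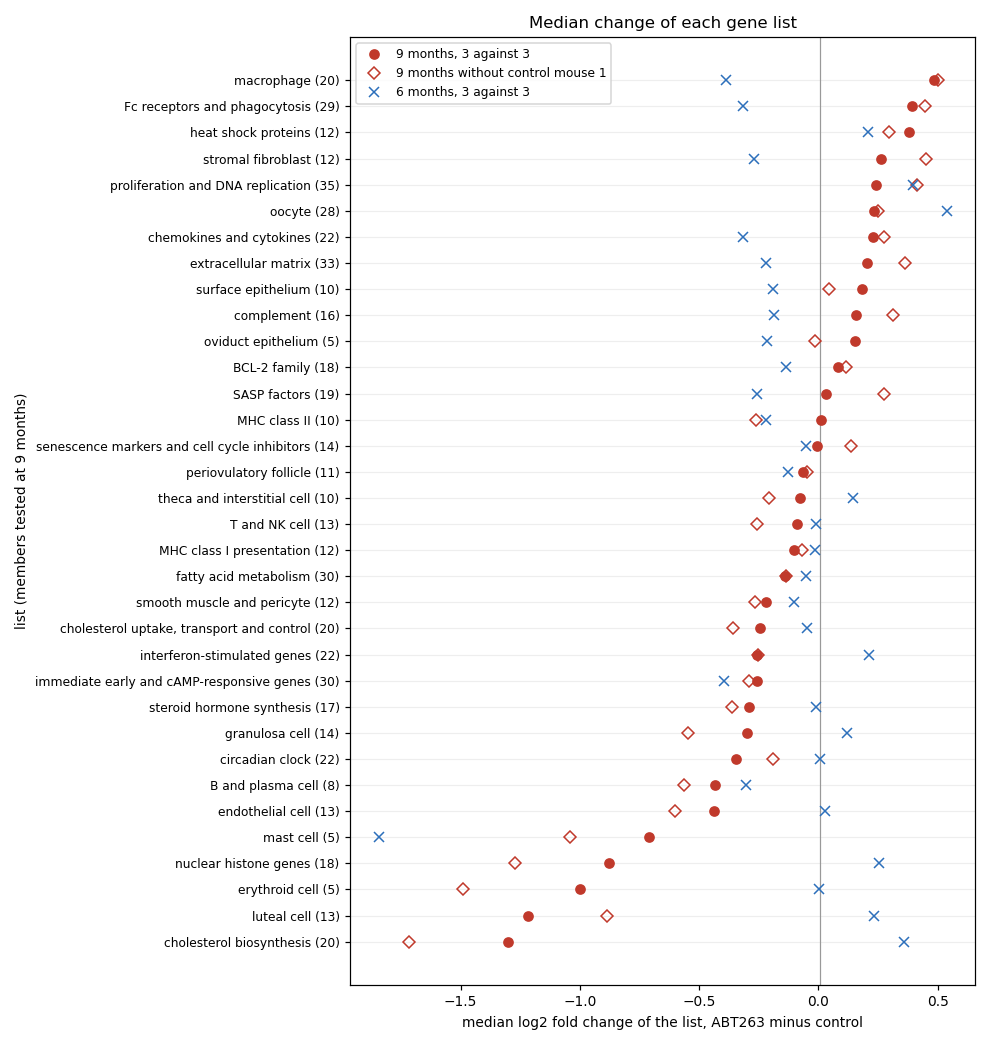
Median log2 fold change (ABT263 minus control) of the 34 gene lists with at least 5 members tested, with the number tested in brackets, filled circles for all 6 mice at 9 months, open diamonds for 9 months without control mouse 1, crosses for the 6-month comparison and a grey line for the median of all genes at 9 months. The macrophage list is highest at 0.48 and cholesterol biosynthesis lowest at -1.30, and many lists lie on opposite sides of the line at the 2 ages.

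Other mice of the same schedule were collected at 6 months, when dosing ended, and were set against the 3 mice labelled natural aging at 6 months. Whether those controls were given vehicle is not given by the labels either. Whether treated and control mice differed by another amount at 9 months than at 6 months was tested as an interaction over these 12 mice. edgeR called no gene (0 of 18202, 0%, smallest adjusted p = 0.112), and at an unadjusted p under 0.05 the difference was higher at 9 months for 613 genes (3.37%) and lower for 722 (3.97%). DESeq2 called 51 genes higher (0.251% of 20287) and 44 lower (0.217%) at 9 months relative to 6 months, and edgeR without control 1 of the 9-month group called 31 (0.165% of 18829). The 5 genes with the smallest p were Lyz2, Lgals3, Irf8, Cd68 and Vwa5b1, of which the first 4 are genes of macrophages. Lyz2 was at 364, 256 and 382 CPM in the 6-month controls and 170.4, 186 and 153 CPM in the mice treated and collected at 6 months, lower without overlap, while at 9 months it was higher, so that the interaction was 1.62 ± 0.21 on the log2 scale (edgeR adjusted p = 0.112). Lgals3, galectin-3 of activated macrophages, was at 86.4, 68.7 and 104 CPM and 43.02, 42.4 and 29.6 CPM at 6 months and at 84.4, 65.1 and 59.8 CPM and 114, 122 and 103 CPM at 9 months (interaction 1.87 ± 0.26). Irf8 went from a log2 fold change of -0.66 at 6 months to 0.78 at 9 months, and Cd68, a lysosomal protein of macrophages, from -0.71 to 0.49. Vwa5b1, a gene of little known function, had the opposite order, from 1.25 to -0.89. DESeq2 called the interaction of Lyz2 and Lgals3 (adjusted p = 1.13e-07 and 5.96e-07). So did edgeR without control 1 of the 9-month group (adjusted p = 0.0245 and 0.0224). That mouse was singled out from these same values, so the fit without it is not independent evidence. Without any other 9-month mouse edgeR called 0 genes.

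**Figure D5:**
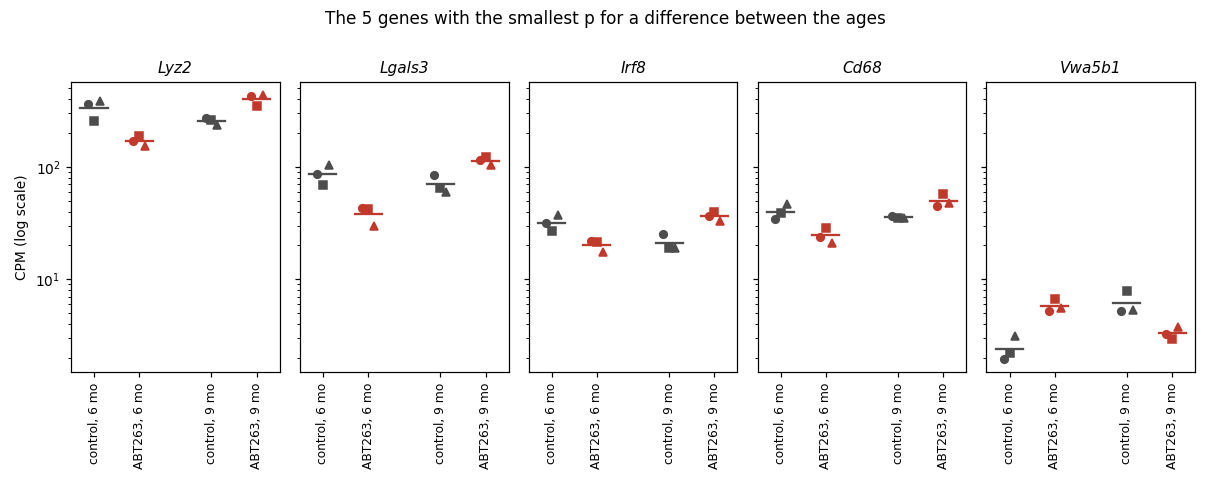
Level in CPM, on a log axis, of the 5 genes with the smallest interaction p in the 6-month and 9-month mice, with controls in grey, ABT263-treated mice in red, 1 point per mouse and lines for the mean of 3 mice. Lyz2, Lgals3, Irf8 and Cd68 are lower in the treated mice at 6 months and higher at 9 months, and Vwa5b1 shows the reverse.

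Across the macrophage list the median was -0.39 at 6 months and 0.48 at 9 months. Of 20 members, 12 had an unadjusted interaction p under 0.05 in that direction and 0 in the other, against 3.37% and 3.97% of all genes tested. For Fc receptors and phagocytosis the medians were -0.32 and 0.39, with 15 of 29 members in that direction. The mice of the 2 ages and their controls are separate, but the 4 groups each hold 3 mice. For cholesterol biosynthesis the medians were 0.36 and -1.30, with 12 of 20 members lower at 9 months relative to 6 months at an unadjusted p under 0.05, a pattern that control 1 of the 9-month group did not share. The oocyte list had medians of 0.54 at 6 months, with 23 of 29 members higher at an unadjusted p under 0.05, and 0.23 at 9 months, with 0 of 28. Of all genes tested, 11.01% had an unadjusted p under 0.05 in either direction at 6 months, against 5.73% at 9 months. At 9 months the oocyte median was -0.05 without treated mouse 2 and -0.04 without control 2. Heat shock proteins had medians of 0.21 and 0.38.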

How the data were processed

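Total RNA of each ovary was extracted and mRNA libraries were made with a NEBNext Ultra kit and sequenced by Novogene. The authors deposited raw counts per Ensembl gene, whole numbers without normalization, and the submitters' processing notes name STAR and mm10. The counting program, annotation and strand setting are not given in the sources used here, so overlapping and antisense genes cannot be told apart. Of 54532 identifiers, 54495 are in GENCODE M21, which gave names and coordinates. Counts were compared in edgeR 4.0.16 (R 4.3.3) with TMM normalization, filterByExpr and the quasi-likelihood F test on the 6 libraries, with Benjamini-Hochberg adjustment over all genes tested. The standard error was the log2 fold change divided by the square root of F. The age interaction used 12 libraries. CPM used TMM factors of all 24 libraries. The fit was tested on simulated data. At these depths 3 counts in a library are 0.143 to 0.186 CPM. No libraries of a group were duplicates. Alternatives were DESeq2 1.42.0, RLE, no filter, 10 counts in every library, all 24 libraries, a replicate block, and each mouse left out.

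Genes named are the 8 with the smallest p in each direction among genes without overlap whose mean was 2 CPM or more, up to 10 per direction from DESeq2, up to 3 per list, 5 from the interaction, and genes fixed by role. Some others of each list are named as examples, chosen after their values were seen, and some genes that the rule takes are not reported here. The members and the 36 lists were chosen with earlier results of these data known. Promoters are from RefSeq. Figures were made with matplotlib 3.10.9.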

Additional observations from a re-analysis of the deposited data

How the results depend on the processing

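With 0 genes called by edgeR, RLE normalization, at least 10 counts in every library, all 24 libraries in one fit and the replicate block also gave 0, while DESeq2 called 32, the fit with no filter on low counts 7, and fits that left out 1 mouse 0 to 5, with 5 without control 1 and 0 without any of the others. The count at an unadjusted p under 0.05 was 978, and it was 1647 with no filter and 475 to 2258 with 1 mouse left out, at 475 without control 2, 625 without control 3 and 2258 without control 1. For the interaction edgeR called 0, DESeq2 95, the fit with no filter 204, and fits without 1 mouse 0 to 31, with 31 without control 1 of the 9-month group and 1 without control 2 of the 6-month group. Of 150 named genes tested, 18 changed sign under some setting and DESeq2 called 18. With 1 mouse left out, the log2 fold changes of these 18 spanned Adamts1 -0.57 to 1.86, Amh -0.22 to 0.44, Bax -0.21 to 0.0261, Cdkn1a -0.78 to 1.18, Cdkn2a -0.76 to 0.90, Cdkn2b -1.38 to 0.15, Ces1d -0.99 to 0.00279, Cyp17a1 -2.17 to 0.99, Cyp19a1 -2.52 to 0.46, Edn2 -0.17 to 2.15, Fabp4 -0.37 to 0.48, Fshr -0.34 to 0.67, H2-DMb2 -0.18 to 0.58, Insl3 -0.54 to 0.0841, Lmnb1 -0.0153 to 0.31, Mcl1 -0.27 to 0.01705, Mmp9 -0.38 to 0.20, Nr1d1 -0.45 to 0.06102. Same-numbered mice had correlations of their deviations of 0.31, -0.11 and 0.019, and 1 of 3 treated mice correlated best with its own number, so the numbers were not taken as pairs. With them as a block, 1118 genes had an unadjusted p under 0.05, and Cdkn1a (0.18) and Cyp17a1 (-0.15) changed sign. List medians changed sign under some setting for 7 of 36 lists, and with 1 mouse left out these spanned MHC class I presentation -0.22 to 0.04, MHC class II -0.26 to 0.28, SASP factors -0.12 to 0.28, oocyte -0.05 to 0.47, oviduct epithelium -0.13 to 0.15, senescence markers and cell cycle inhibitors -0.03 to 0.14, theca and interstitial cell -0.40 to 0.09, against 0.35 to 0.56 for macrophages and -2.15 to -0.97 for cholesterol biosynthesis. Why control 1 stands apart was not tested. Il6 and Mmp3, with a few counts, could not be tested at this depth.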

Other observations

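The long non-coding RNA model Gm28187 (chr1:101892958-101895091 on GRCm38) had 169, 602 and 288 counts in the controls and 26, 29 and 42 in the ABT263-treated mice at 9 months, the smallest DESeq2 adjusted p of the comparison (2.42e-08). In CPM it was at 9.12, 32.9 and 13.7 in these controls and at 1.52, 1.63 and 2.601 in these treated mice. In the natural aging series it ranged from 0.865 to 6.66 CPM at 3 months, 0.406 to 2.35 CPM at 18 months and 0.410 to 1.59 CPM at 25 months. At 6 months it ranged from 3.795 to 17.9 CPM and at 12 months from 4.71 to 15.7 CPM. The ranges at 6 and 12 months lay above every 9-month treated mouse and overlapped the range of the 9-month controls. The antisense model Gm49417 had 368, 373 and 386 counts in the controls and 224, 164 and 148 in the treated mice. Since the strand setting of the counting is not stated, its reads cannot be told apart from those of the gene it overlaps. Mir22hg, the host transcript of a microRNA, was at 48.6, 62.2 and 49.8 CPM in the controls and 30.2, 30.9 and 38.9 CPM in the treated mice (edgeR log2 fold change -0.69 ± 0.15), lower without overlap, and its counts say nothing of the mature microRNA.

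Nat8f5, an N-acetyltransferase family gene that did not pass edgeR's filter with all 6 mice, had 8, 77 and 175 counts in the controls and 2, 5 and 5 in the treated mice, and DESeq2 called it lower (adjusted p = 0.00323). Mast cell markers had a median log2 fold change of -0.71 over 5 genes tested, and at 6 months one of -1.84. Cpa3, a mast cell protease, was at 2.43, 7.77 and 5.08 CPM in the controls and 2.87, 3.09 and 3.41 CPM in the treated mice at 9 months, with control 1 below all 3 treated mice.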
